A study of Homo sapiens with 4 samples.

Results

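UHMK1, NEK7, HIPK3, TMEM65, ZC3HAV1L, PLEKHA1, SMIM14, PLSCR4 and TK2 are 9 genes whose array signal was higher after siTAZ in both lung adenocarcinoma lines studied, with a large difference in A549 and a smaller one in H441. They were chosen by those same differences, so the differences are given as a description with no test. The 9 were taken from 18377 genes with a single symbol in the platform's annotation. No numeric threshold defined them. All 9 were among the 12740 genes tested, whose highest array reached the median of the whole table (6.13 on the log2 scale). PLSCR4 reached it only on its siTAZ arrays.

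The arrays compare siTAZ, an siRNA named for the gene product of WWTR1, with siNTC, the control siRNA, in A549 and in H441, both established human lung cancer cell lines. There were 4 groups, 1 array each, of RNA taken 48 h after lipid transfection, with no replicate in any group. Control cells were transfected too. No source used here gives the siRNA sequences, a second siRNA against TAZ or untransfected cells. Within a line, the effects of the siRNA, of the transfection behind each array and of the array cannot be told apart.

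TAZ is a transcriptional co-activator that has no DNA-binding domain of its own and acts mainly through TEAD factors. The Hippo kinases phosphorylate it, which holds it in the cytoplasm on 14-3-3 proteins and marks it for breakdown. The 9 genes encode 3 protein kinases, 2 mitochondrial proteins, 3 proteins linked to membranes or their lipids and a relative of an antiviral RNA-binding protein.

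WWTR1 read 10.04 with siNTC and 7.64 with siTAZ in A549, and 9.61 and 7.47 in H441. It was 5.27-fold and 4.40-fold lower, as the labels imply. Of 11 markers of lung epithelium and of these lines limma called 0 after siTAZ, with 5 at an unadjusted p under 0.05, against 13.2% of all genes tested. In A549 the mean signal of the 11 went from 9.31 (siNTC) to 9.23 (siTAZ), and in H441 from 9.74 to 9.77. The 5 were KRT7 (-0.25 in A549 and -0.42 in H441), KRT8 (-0.43 and -0.18) and KRT18 (-0.32 and -0.19), keratins of simple epithelium, and the surfactant genes SFTPB (0.17 and 0.67) and SFTPC (-0.38 and -0.13). KRT8 and KRT18 still lay between 13.04 and 13.64 on all 4 arrays. NKX2-1, the lung lineage factor, and NAPSA, a protease of alveolar type II cells, lay between 9.14 and 10.40 in H441 but at 5.67 or below in A549, under the table median. On the siNTC arrays EPCAM and CDH1 were also higher in H441 (12.13 and 12.27) than in A549 (6.65 and 8.68). ALDH1A1 and AKR1B10 went the other way, with 13.57 and 12.18 in A549 and 4.81 and 5.32 in H441. The means over the 11 markers hide these gaps. SFTPC was at 6.36 or below on every array. The part of these markers in the members' values was not tested. Of 10 markers of fibroblasts, endothelium and blood cells, 3 passed the brightness filter. They were COL1A1, COL1A2 and CD68, and limma called 0 of the 3 over both lines, with 1 at an unadjusted p under 0.05. CD68 lay between 8.61 and 10.41 and COL1A1 between 7.31 and 8.71, above the table median on every array. COL1A2 passed only on the H441 siTAZ array, at 6.17. The collagen gene COL1A1 was higher by 0.41 in A549 and by 0.44 in H441 (limma adjusted p = 0.054). Its part in the members' values was not tested.

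The 3 kinase genes are UHMK1, NEK7 and HIPK3. UHMK1 encodes a serine/threonine kinase with a U2AF homology motif that phosphorylates the splicing factor SF1, stathmin and the cell cycle inhibitor p27. In A549 it read 8.71 on the siNTC array and 10.55 on the siTAZ array, and in H441 10.34 and 11.04. The difference, siTAZ minus siNTC on the log2 scale here and below, was 1.84 in A549 (3.58-fold) and 0.71 in H441 (1.63-fold). UHMK1 had rank 1 among 11405 genes in A549 and rank 15 among 11911 in H441, counting genes that reached the table median on either array of the line.

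NEK7 encodes a kinase of the mitotic spindle that also binds NLRP3 to allow inflammasome assembly. It read 7.20 and 8.88 in A549, and 9.18 and 9.72 in H441. The differences were 1.68 (3.21-fold) and 0.53 (1.45-fold). The siTAZ array of A549 still lay below both H441 arrays, which held for 2 of the 9, NEK7 and SMIM14. The share of all genes with such a gap was not counted. Limma called 71.9% of all genes tested as different between the lines, and nothing is read from the gap.

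HIPK3 encodes a homeodomain-interacting protein kinase, of a nuclear family that acts on transcription factors. Its values were 7.98 and 9.25 in A549, and 8.94 and 9.68 in H441, with differences of 1.27 (2.41-fold) and 0.74 (1.67-fold). Here the siTAZ array of A549 passed the siNTC array of H441.

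TK2 and TMEM65 encode mitochondrial proteins. TK2, the thymidine kinase that supplies precursors for mitochondrial DNA, read 7.10 and 8.20 in A549, and 7.37 and 8.12 in H441. Its differences, 1.10 (2.15-fold) and 0.75 (1.68-fold), were the most alike of the 9, and its A549 difference was the lowest among them. TMEM65, an inner membrane protein, read 7.14 and 8.54 in A549, and 7.32 and 8.11 in H441, with differences of 1.41 (2.65-fold) and 0.79 (1.73-fold). For both genes each siTAZ array lay above each control array whatever the line. This held for 6 of the 9, all but NEK7, PLEKHA1 and SMIM14, and for 5.27% of all genes tested, and since it follows from the differences the genes were chosen on, nothing is read from it.

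PLEKHA1, SMIM14 and PLSCR4 encode proteins of membranes or their lipids. PLEKHA1, also called TAPP1, is an adaptor whose pleckstrin homology domain binds the lipid PI(3,4)P2. It was the only one of the 9 with a higher control signal in A549, at 7.93, than in H441, at 7.25. With siTAZ it read 9.36 and 7.93, so its differences were 1.43 (2.69-fold) and 0.68 (1.60-fold). Both A549 arrays lay above both H441 arrays, though the A549 control and the H441 siTAZ array both rounded to 7.93. The share of all genes with that order was not counted, and nothing is read from it.

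SMIM14, a small integral membrane protein, read 6.86 and 8.52 in A549, and 9.13 and 9.60 in H441. Its differences were 1.66 (3.15-fold) and 0.47 (1.39-fold), the latter being the lowest of the 9. PLSCR4, a member of the phospholipid scramblase family, was the dimmest, with 5.78 and 7.42 in A549 and 6.09 and 6.72 in H441. Both of its control values lay under the table median, where RMA compresses differences, and its differences were 1.64 (3.12-fold) and 0.63 (1.55-fold).

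ZC3HAV1L is a paralog of ZC3HAV1, the zinc finger antiviral protein. It read 7.11 and 8.43 in A549, and 7.84 and 8.64 in H441. The differences were 1.32 (2.49-fold) and 0.80 (1.74-fold), and its H441 difference, rank 5 in that line, was the highest of the 9.

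**Figure D1:**
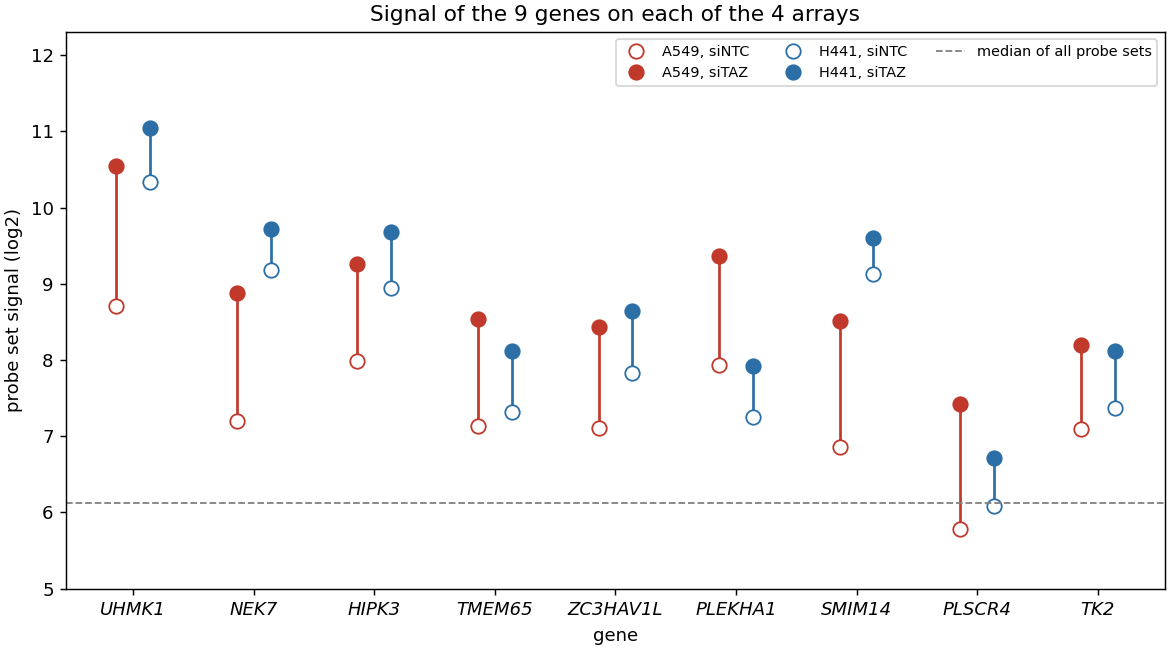
Log2 probe set signal (vertical axis) of each of the 9 genes on the 4 arrays. Open circles are siNTC, filled circles siTAZ, red A549 and blue H441, with 1 array per point and no error bars, since no group has a replicate. Every filled circle lies above its open circle, and the red lines are longer than the blue ones.

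Over the 9 genes the differences ran from 1.10 to 1.84 in A549, with a median of 1.43, and from 0.47 to 0.80 in H441, with a median of 0.71. Over all 12740 genes tested the medians were 0.0037 and 0.01. All 9 were at least 2-fold higher in A549, which holds for 0.316% of the genes counted there, and 1.76% were at least 1.5-fold higher. In H441, 7 of the 9 reached 1.5-fold, against 0.479% of genes, and 0 reached 2-fold. NEK7 and SMIM14 fell short of 1.5-fold in H441. Since the genes were chosen on these values, nothing is read from these counts.

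The H441 difference was between 28.5% (SMIM14) and 67.8% (TK2) of the A549 difference, with a median of 47.6%. UHMK1, NEK7, SMIM14 and PLSCR4, with A549 differences of 1.64 or more, had H441 differences of 0.47 to 0.71. The other 5 genes, at 1.43 or less in A549, had 0.68 to 0.80 in H441. The order of the genes in A549 was therefore not their order in H441. With 1 array per group, neither order has an error to set it against. Under other scalings of the arrays (median centring, quantile and cyclic loess) the A549 differences stayed between 1.09 and 1.84, and the H441 ones between 0.39 and 0.81.

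**Figure D2:**
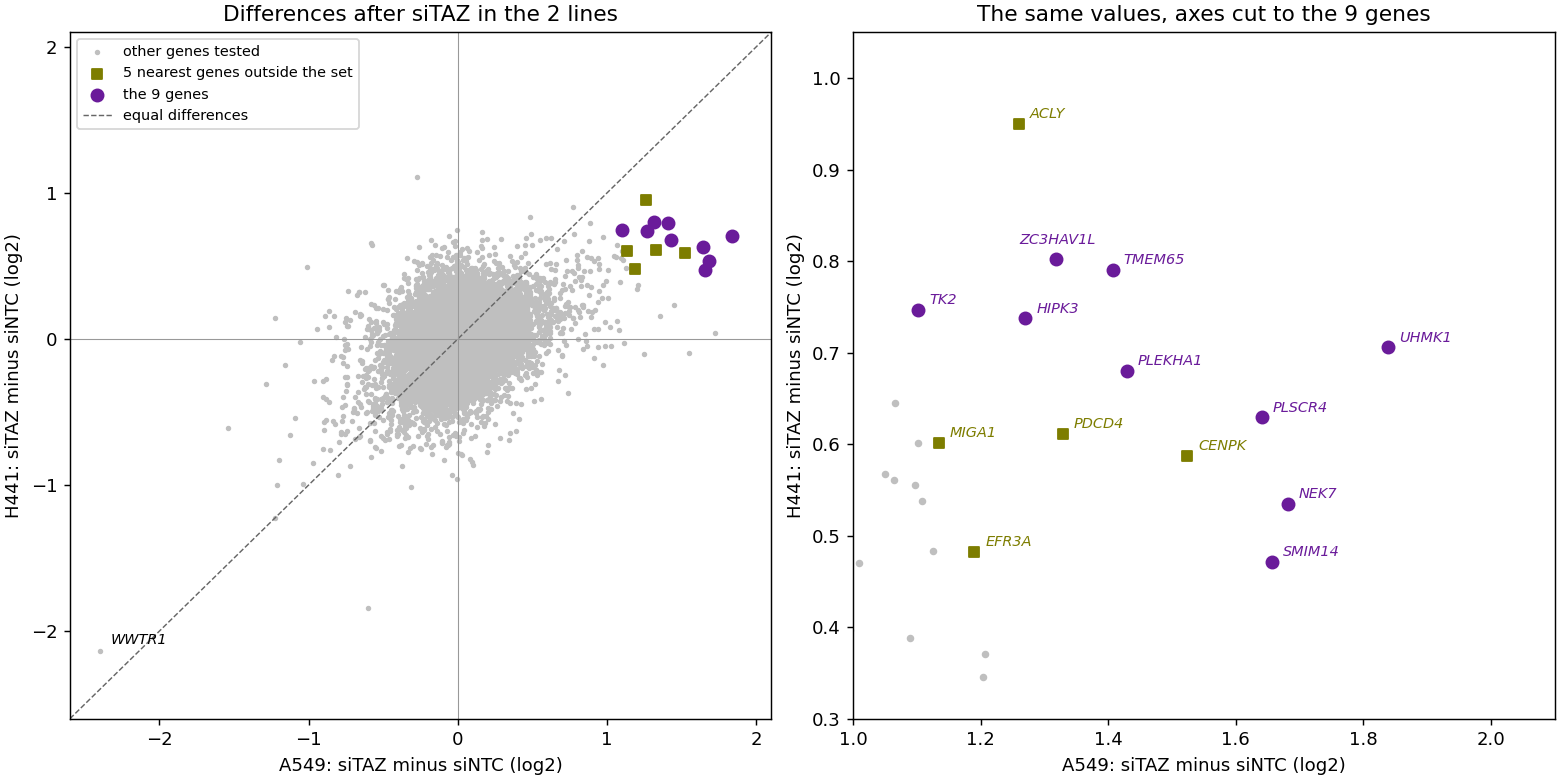
Differences between siTAZ and siNTC (log2) in A549 (horizontal) and H441 (vertical) for the 12740 genes tested, with the 9 genes in purple and the 5 nearest others as squares. The right panel has cut axes. The 9 genes lie at 1.10 or more in A549 and 0.47 or more in H441, below the dashed line of equal differences, and WWTR1 lies at the lower left.

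Other genes reached the same range. Outside the set, 15 genes had an A549 difference at or above that of TK2, the lowest of the 9, and their H441 differences ran from -0.11 to 0.95 with a median of 0.37. Of these, 7 also reached the H441 difference of SMIM14: CENPK, PDCD4, ACLY, EFR3A, MIGA1, SPOPL and ANKFY1. The closest of them to the inner edge in A549 was ANKFY1, with 1.11 in A549 and 0.54 in H441. The list of 9 is thus part of a larger group with like values.

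The genes nearest to the members' median pair of differences, by Euclidean distance over the 2 lines, were PDCD4, CENPK, ACLY, MIGA1 and EFR3A. PDCD4, an inhibitor of translation initiation, had differences of 1.33 and 0.61 at a distance of 0.14. CENPK, a kinetochore gene, had 1.52 and 0.59 at 0.15. ACLY, ATP-citrate lyase, had 1.26 and 0.95 at 0.30, MIGA1, a protein of the mitochondrial outer membrane, 1.13 and 0.60 at 0.31, and EFR3A, a plasma membrane anchor of a lipid kinase, 1.19 and 0.48 at 0.33. The A549 difference of MIGA1 was 0.48 with the mean of its probe sets in place of the brightest. The 9 genes themselves lay 0.03 (PLEKHA1) to 0.41 (UHMK1) from that point.

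The level in A549 against H441, averaged over both siRNAs, is given as a description. It comes from the same 4 arrays as the choice, the siTAZ arrays included, and the error of its fit rests in part on the difference between the lines' responses that the choice used. For the count alone, limma with siRNA as a term called 6 of the 9 as different between the lines (adjusted p under 0.05), against 71.9% of all genes tested. As lower in A549 it called 5, against 52.8%. Both counts were near the background, and nothing is read from them.

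Averaged so, SMIM14 was 3.20-fold lower in A549 than in H441 (-1.68 on the log2 scale), the largest gap among the 9. NEK7 was 2.66-fold lower (-1.41) and UHMK1 2.09-fold lower (-1.06). PLEKHA1 went the other way, 2.08-fold higher in A549 (1.06). The gaps of HIPK3 and ZC3HAV1L were -0.69 and -0.46. TMEM65, PLSCR4 and TK2 had 0.12, 0.19 and -0.10.

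These gaps depended on the scaling of the arrays. After quantile normalization and cyclic loess UHMK1 stood at -0.66 and -0.67, HIPK3 at -0.30 both times, ZC3HAV1L at -0.12 and -0.11, TMEM65 at 0.43 and 0.46 and PLSCR4 at 0.38 and 0.42. Median centring gave 0.27 for TMEM65 and 0.35 for PLSCR4. TK2 turned to 0.05, 0.21 and 0.23 under median centring, quantile and cyclic loess. SMIM14, NEK7 and PLEKHA1 moved by less than 1.5 times under these 3 scalings.

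On the control arrays 8 of the 9 genes were lower in A549 than in H441, as were 68.9% of all genes tested. SMIM14 had the widest gap there, 4.82-fold, NEK7 3.96-fold and UHMK1 3.09-fold. On the siTAZ arrays these 3 gaps were 2.12-fold, 1.79-fold and 1.41-fold. TMEM65, PLSCR4 and TK2 changed order, being lower in A549 with siNTC and higher in A549 with siTAZ. The gap of PLEKHA1 went from 1.61-fold to 2.70-fold, higher in A549 both times. The A549 control array enters both this gap and the difference the genes were chosen on, and a larger A549 difference by itself moves every gap upward, so nothing is read from the shift.

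**Figure D3:**
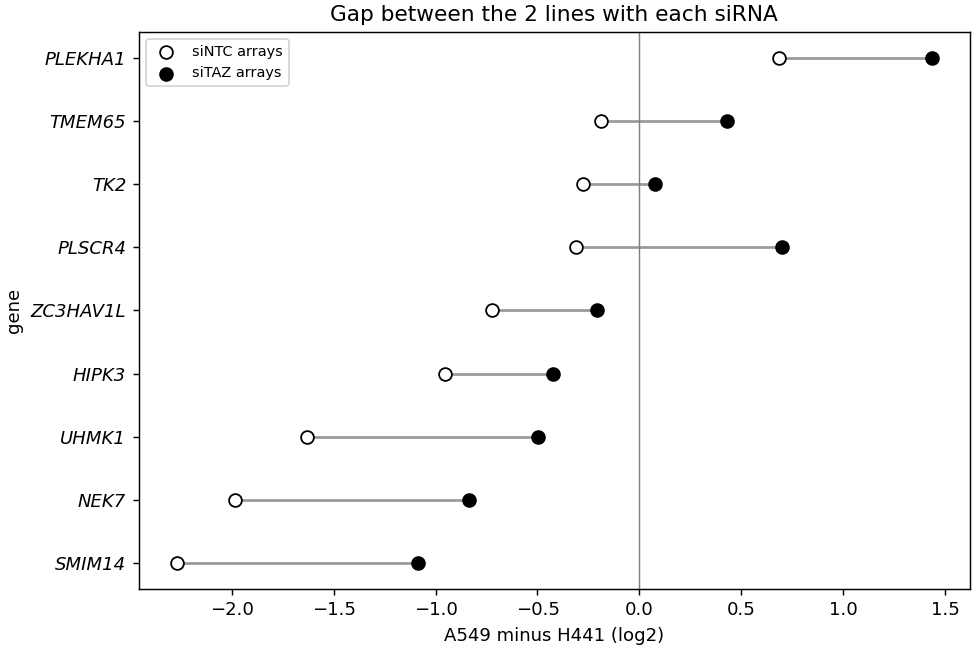
Signal in A549 minus signal in H441 (log2, horizontal) for each of the 9 genes, on the siNTC arrays (open) and the siTAZ arrays (filled), 1 array per line and siRNA. SMIM14 runs from -2.27 to -1.08 and PLEKHA1 from 0.68 to 1.43, and TMEM65, PLSCR4 and TK2 cross the line at 0.

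Promoter sequence is a property the choice did not use. RefSeq promoters (GRCh38.p14, 1 start per gene, other starts not scanned) matched 7 of the 9 genes, all but NEK7 and TMEM65, and the 250 bases before the start were searched on both strands. The TEAD motif, CATTCC, was found in UHMK1 and HIPK3, 2 of 7, against 9.30% of the 10200 promoters of tested genes. That share was not matched for GC content, so nothing is read from the 2 of 7. The stretches in UHMK1 and HIPK3 are shown because TAZ acts through TEAD factors. Capitals mark the motif, which reads as its reverse complement in UHMK1, and each is printed 5′ to 3′ on the plus strand, which is the strand of both genes. The UHMK1 match begins at position -137 from the start, at chr1:162497643-162497698 with its flanks, and the HIPK3 match at position -56, at chr11:33256591-33256646.

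UHMK1: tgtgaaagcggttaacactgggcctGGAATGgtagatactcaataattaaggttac

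HIPK3: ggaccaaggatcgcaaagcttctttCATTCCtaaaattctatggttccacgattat

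A match of 6 letters is a description and not a bound site. The FOXO motif GTAAACA (1.85% of all promoters), the AP-1 motif TGANTCA (3.92%), the CRE TGACGTCA (2.86%), the E-box CACGTG (8.79%) and CCAAT (34.2%) were in 0 of the 7. The ETS motif CCGGAA was in PLEKHA1 (24.1% of all), and TATAAA in HIPK3 (5.79%). The GC box GGGCGG was in UHMK1, ZC3HAV1L, SMIM14 and PLSCR4, 4 of 7, against 67.3%. A base could count for more than 1 motif.

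GC content of these promoters ran from 42.0% in HIPK3 and 48.8% in UHMK1 to 74.8% in ZC3HAV1L, with a median of 62.8%, against 65.2% over all. The 2 promoters with the TEAD motif were the least GC-rich of the 7. Their ratios of observed to expected CpG were also the lowest, 0.28 in HIPK3 and 0.54 in UHMK1, where the 7 had a median of 0.79 and all promoters 0.81. PLEKHA1 had the highest, 1.02.

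The genes spanned 14.5 kb (ZC3HAV1L) to 165.4 kb (NEK7), with a median of 66.5 kb, and 8 of the 9 lay above the median of 27.0 kb over 12729 tested genes with a span in the RefSeq table. The nearest protein-coding gene on each side of each member was also looked up, a choice made after the members' values were seen. Of these 18 neighbours, 15 were analysed under a single symbol, neither of TK2's among them, and 9 were bright enough to test. The differences of these 9 ran from -0.46 to 0.40 in A549 and from -0.47 to 0.31 in H441. Over both lines limma called 0 of the 9, with 5 at an unadjusted p under 0.05, against 2.47% of all genes called (315, of which 151 were higher and 164 lower) and the 13.2% of all genes at that unadjusted p.

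Related genes were read from 9 lists of paralogs, substrates and pathway partners, 156 genes in all, of which 13 are not analysed here and 130 were tested. They are not members, and the lists were drawn up from the known roles of the members, with earlier results of these data known. Over both lines, with cell line as a term, 6 of the 130 passed (limma adjusted p under 0.05), 3 higher and 3 lower, against the same 2.47% of all genes. Their median differences were 0.0089 in A549 and -0.05 in H441. The fit rests on 2 lines with no repeat in either, and 19 of the 130 had an unadjusted p under 0.05, a share near the 13.2% over all genes. All 6 calls were lost after cyclic loess, and all but ATP11A without the filter on dim genes.

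The closest paralogs are given by their values alone, since the members were chosen for large differences. They were picked for their homology, outside the rule for naming genes. NEK6, the closest relative of NEK7, differed by 0.14 in A549 and by 0.11 in H441. HIPK2 had 0.35 and 0.25, and HIPK1 0.31 and 0.04. ZC3HAV1, which lies next to ZC3HAV1L in the genome, had 0.06 and -0.11, PLEKHA2 0.08 and -0.19, PLSCR1 0.23 and -0.04, and TK1, the cytosolic thymidine kinase, -0.0050 and 0.12. Of these 7 limma called 0, with HIPK2 at an unadjusted p under 0.05. The means over both lines of NEK6, ZC3HAV1, PLEKHA2, PLSCR1 and TK1, at most 0.13 in size, moved by over 1.5 times with the scaling. PLSCR2, a neighbour of PLSCR4, was too dim to test, at 5.20 or below on every array.

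Among NEK kinases and mitotic partners of NEK7, limma called 0 of 11 tested genes, with 0 at an unadjusted p under 0.05. List medians were 0.03 (A549) and -0.04 (H441). NEK3 had -0.26 and -0.04, and CEP192, a centrosome scaffold, 0.14 and -0.48.

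Of 7 tested inflammasome genes, the pathway in which NEK7 binds NLRP3, limma called 2, both lower, and the same 2 had an unadjusted p under 0.05. NLRP3 itself, at 5.60 or below, and CASP1, IL1B and NLRC4 lay under the table median on all 4 arrays and were not tested. IL18, the cytokine, read 8.25 and 7.88 in A549, and 6.74 and 5.87 in H441 (-0.62 ± 0.13 over both lines, limma adjusted p = 0.0068). CASP4, the caspase that senses cytosolic lipopolysaccharide, read 7.60 and 7.04 in A549, and 9.86 and 9.45 in H441 (-0.48 ± 0.12, limma adjusted p = 0.025). Both were lower with siTAZ in each line. NEK7 was chosen for being higher in both lines, so nothing is read from its opposite sign. The list had medians of -0.04 and -0.05. CASP4 lost its call after quantile normalization (limma adjusted p = 0.072).

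In the HIPK list limma called 1 of 16 tested genes, as higher, and 2 had an unadjusted p under 0.05. TP53INP1, a p53-induced gene, went from 6.26 to 7.71 in A549 and from 5.10 to 5.33 in H441, where both values lay under the table median (0.84 ± 0.17, limma adjusted p = 0.0068, or 0.12 after quantile normalization). The medians of the list were 0.07 and 0.0032.

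Of 11 tested substrates of UHMK1 and splice site factors, limma called 0, with 3 at an unadjusted p under 0.05. CDKN1B, which encodes p27, had -0.36 in A549 and -0.45 in H441 (limma adjusted p = 0.068). The limma adjusted p was 0.030 after median centring and 0.040 under the stricter filter. It was 0.11 after quantile normalization, 0.19 after cyclic loess, 0.15 without the filter and 0.069 with the mean of probe sets. STMN1, stathmin, had -0.30 and -0.37 (limma adjusted p = 0.16), and its mean over both lines went from -0.33 to -0.19 with the mean of its probe sets in place of the brightest. The medians were -0.02 and -0.04.

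Deoxynucleotide salvage and mitochondrial DNA maintenance, the setting of TK2, had 27 tested genes, of which limma called 1 higher and 1 lower. Of the 27, 6 had an unadjusted p under 0.05, against 13.2% of all genes tested. SAMHD1, which breaks down deoxynucleotides, read 7.68 and 8.43 in A549, and 8.97 and 9.19 in H441 (0.49 ± 0.13, limma adjusted p = 0.043). RRM2, a subunit of ribonucleotide reductase, read 9.22 and 8.71 in A549, and 10.12 and 9.57 in H441 (-0.53 ± 0.12, limma adjusted p = 0.013). SAMHD1 lost its call after median centring and RRM2 after quantile normalization, both at a limma adjusted p of 0.050. The medians were 0.07 and -0.04.

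Phospholipid scramblases and flippases had the highest list median in A549, 0.20, with 0.05 in H441. Limma called 1 of 11 tested genes, as higher, and 2 had an unadjusted p under 0.05. ATP11A, a flippase subunit, went from 6.64 to 7.26 in A549 and from 8.17 to 8.86 in H441 (0.66 ± 0.12, limma adjusted p = 0.0019). Its differences of 0.62 and 0.69 were nearly equal in the lines. PLSCR4 had 1.64 and 0.63, but it was chosen for a larger difference in A549, so nothing is read from the contrast.

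The remaining 3 lists had 0 calls in limma. Mitochondrial calcium transport, to which TMEM65 has been linked, had medians of -0.02 and -0.12 over 13 tested genes, with 1 at an unadjusted p under 0.05. MICU2 had -0.14 and -0.41. GJA1, which the list also holds, had -0.32 and -0.12, with both H441 values at 5.23 or below, under the table median. The PLEKHA family and PI(3,4)P2 signalling list had medians of 0.02 and -0.09 over 21 genes, with 2 at an unadjusted p under 0.05, PIK3CB at -0.28 and -0.35 and AKT1 at 0.31 and 0.32. Zinc finger antiviral protein and PARP genes had medians of -0.04 and -0.12 over 13 genes, with TIPARP, at -0.36 and -0.16, the 1 gene with an unadjusted p under 0.05, while PARP12 had -0.23 and -0.24.

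**Figure D4:**
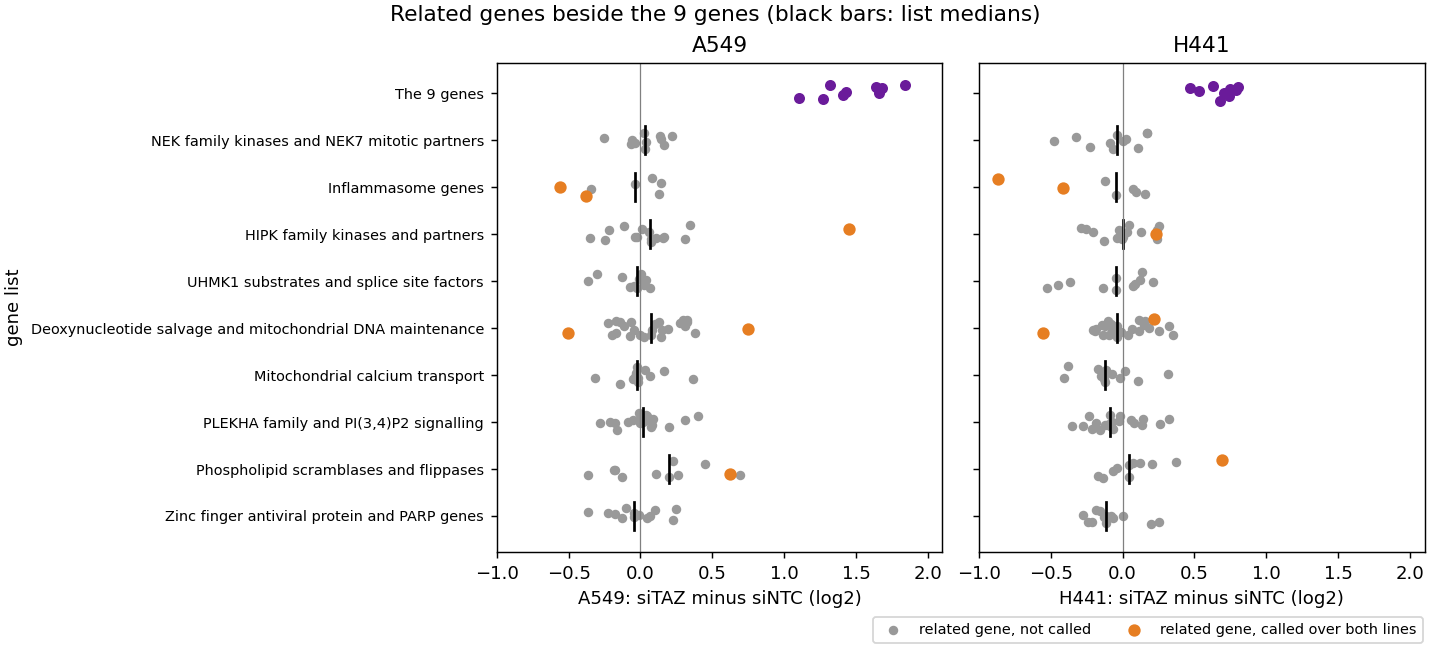
Differences between siTAZ and siNTC (log2, horizontal) in A549 and H441 for the 9 genes (purple) and the tested genes of the 9 related lists (grey), with list medians as black bars and genes called by limma over both lines in orange. The vertical scatter within a list carries no value. TP53INP1 in A549 is the only related gene at or above 1.10, the lowest of the purple points there.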

How the data were processed

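Total RNA of A549 and H441 cells was measured on 4 Affymetrix whole-transcript arrays. Per the submitters' processing notes the authors used RMA, and the deposited signals are on a log2 scale, 1 per probe set. No source used here gives the RMA version or says if the arrays were normalized jointly. That scale was read from the values. RMA compresses differences of dim probe sets. The number of arrays limits the precision.

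Of 28869 probe sets, 19310 had 1 gene symbol in the platform annotation, 1752 several and 7807 none. Symbols were updated by Entrez identifier (18348 of 18377 genes matched the GRCh38.p14 table). A gene with more than 1 probe set (685 genes) took the brightest, and each member had 1. The fit was limma 3.58.1 (R 4.3.3; lmFit, eBayes, two-sided) with cell line and siRNA as terms, on genes whose highest array reached the table median, with Benjamini-Hochberg adjustment over all 12740. A call is an adjusted p under 0.05. The fit leaves 1 residual degree of freedom, and eBayes draws the error mostly from all genes (22.3 prior degrees of freedom). P-values set the mean difference against this error, which holds no repeat of either line. Values after ± are standard errors of this fit. The code was tested on simulated data.

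The members and lists were chosen with earlier results of these data known. Named genes were the members, WWTR1, every called gene of a related list (or the 2 with the smallest p), the 5 nearest genes and markers. Alternatives were median centring, quantile normalization, cyclic loess, the mean of probe sets, no filter or one at the 75th percentile, and fits without cell line or siRNA.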

Additional observations from a re-analysis of the deposited data

Results flagged for a closer look

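CEP192, of the NEK list, had a difference of 0.14 in A549 and -0.48 in H441. It was flagged because the lines moved in opposite directions. Other genes of that list did so too, such as KIF11 (0.22 and -0.22). Among the paralogs the same held for PLSCR1 (0.23 and -0.039), PLEKHA2 (0.078 and -0.19), ZC3HAV1 (0.064 and -0.11) and TK1 (-0.0050 and 0.12). These contrasts between lines were not tested, since 4 arrays leave no degree of freedom for them. The share of all genes with opposite signs was not counted, and nothing is read from these signs.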

How the results depend on the processing

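The members' differences kept their sign in both lines under each of the 3 scalings and with the mean of probe sets, and so did the counts at 1.5-fold to within 1.5 times. Each line has 1 array per siRNA, so no array could be left out. Over both lines the 315 genes called in limma became 142 after quantile normalization, 20 after cyclic loess, 92 without the filter, and 0 with the cell line left out (no replicate block), where 11 had an unadjusted p under 0.05. The 6 calls in related lists became 2, 0, 1 and 0 in the same order, with 20 and 0 at an unadjusted p under 0.05 for the 2 counts of 0. Between the lines, 9158 calls became 5659 under the stricter filter, which tests fewer genes, and the 6 members called became 2 with the siRNA left out. TK2, not a call, turned from -0.10 to 0.052 after median centring, 0.21 after quantile normalization and 0.23 after cyclic loess, and the mean difference of ZC3HAV1, -0.02, to 0.0044 after cyclic loess. The cause of these shifts was not tested. No paired analysis by replicate number was possible because the labels number no replicates.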
